A study of Drosophila melanogaster with 3 samples.

Results

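Dense clusters of Smox summits were runs of 4 or more peak summits in which each summit lay at most 4000 bp from the next. They were built from the thresholded peak list on the dm6 assembly, over chromosomes 2L, 2R, 3L, 3R, 4 and X, and are called chains here. The members were thus chosen by the measured summit positions themselves. The rule gave 334 chains, which held 1778 of 6600 summits (26.9%), while the other 4822 summits stood alone or in runs of 2 or 3. The animals were whole white prepupae, the stage at puparium formation, of both sexes and unknown age. They came from a transgenic line that stably expresses Smox with GFP at its C terminus, and sonicated chromatin in the range of 200 to 800 bp was precipitated through the GFP. The data form 1 group of 3 biological replicates, all carrying the tagged protein, and no untagged animals were analysed here. Whole animals pool all tissues, so whether the summits of a chain were occupied in the same cells cannot be told from these lists. The lists hold no read counts, and the depth of each replicate is unknown.

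Smox, also called dSmad2, is the receptor-activated SMAD of the Activin branch of TGF-beta signalling. The type I receptor Babo, paired with a type II receptor such as Put or Wit, phosphorylates Smox, which enters the nucleus with the common partner Medea and regulates genes together with other DNA-binding factors. In Drosophila the branch is known for growth control, for neuron remodelling at metamorphosis and for raising the level of the ecdysone receptor in remodelling neurons. SMAD proteins contact short GTCT sequences, called SMAD boxes, and GC-rich sequences.

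The sequences at the strongest summits of the 6 largest chains that could be shown illustrate how AT-rich these places were. Each line gives 151 bp centred on the summit, plus strand, RefSeq Release 6 sequence on dm6 coordinates, with any SMAD box (GTCT, or AGAC for the other strand) in capitals.
Mnt (chrX:3682259-3682409): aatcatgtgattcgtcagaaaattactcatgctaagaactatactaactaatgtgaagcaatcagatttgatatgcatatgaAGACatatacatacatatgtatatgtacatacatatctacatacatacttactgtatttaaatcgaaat
CG14434 (chrX:6863283-6863433): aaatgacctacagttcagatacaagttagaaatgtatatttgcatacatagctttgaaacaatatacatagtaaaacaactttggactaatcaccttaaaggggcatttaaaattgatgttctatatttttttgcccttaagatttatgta
hng3 (chr3L:762466-762616): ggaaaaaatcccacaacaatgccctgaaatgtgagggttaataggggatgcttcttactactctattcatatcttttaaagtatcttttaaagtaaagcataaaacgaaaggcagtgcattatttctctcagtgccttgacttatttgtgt
RhoGAP18B (chrX:19155124-19155274): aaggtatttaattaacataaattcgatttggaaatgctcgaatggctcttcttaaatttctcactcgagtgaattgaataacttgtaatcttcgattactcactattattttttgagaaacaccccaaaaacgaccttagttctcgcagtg
CG43389 (chr3L:3247633-3247783): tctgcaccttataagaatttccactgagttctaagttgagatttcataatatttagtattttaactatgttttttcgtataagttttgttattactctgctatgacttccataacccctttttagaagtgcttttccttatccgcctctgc
CG18404 (chr3R:30272628-30272778): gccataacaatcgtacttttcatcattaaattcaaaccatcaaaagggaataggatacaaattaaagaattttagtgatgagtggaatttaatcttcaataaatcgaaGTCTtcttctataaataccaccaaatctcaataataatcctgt
Only the Mnt and CG18404 windows held a SMAD box, 1 each, and the GC content of the 6 windows ran from 27.2% at Mnt to 35.1% at hng3. The pooled rank of these summits, counted from the highest score of the authors' peak caller, was 483 at Mnt, 431 at CG14434, 457 at hng3, 469 at RhoGAP18B, 92 at CG43389 and 383 at CG18404. A chain is called by the protein-coding gene that holds more of its summits than any other gene, ties going to the longer gene. These can be a minority of the summits, as at hng3, which holds 5 of the 25 summits of its 3 chains. Where no protein-coding gene holds a summit, the nearest gives the name.

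Most chains were short. Chains of 4 summits numbered 159 and chains of 5 numbered 82, while 15 chains had 10 or more summits and the largest had 15. The median span from first to last summit was 5.82 kb, with a range of 1.04 to 21.2 kb, and all spans together made up 2.28 Mb, or 1.70% of the 6 chromosomes. Neighbouring summits within chains were a median of 1361 bp apart, with the middle 50% of gaps between 750 and 2333 bp. Of 1444 gaps, 207 (14.3%) were under 500 bp, and 57 chain lines shared their listed interval with another line. Further neighbouring lines had different intervals but the same replicate regions. At CG14434 the summits at 6856563 and 6856764 both ranked 2891, 3650 and 5840 in the replicates, so such neighbours are not separate recoveries.

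The limit of 4 summits fell on a graded distribution. There were 339 runs of 3 summits just outside it, beside 775 pairs and 2255 single summits. Summits in runs of 3 had a median pooled rank of 3200 and those in chains of 4 had 3249. The largest gap joined was 3975 bp and the smallest gap left unjoined at the end of a chain was 4008 bp. Gaps up to 500 bp under the limit occurred 86 times inside chains, and gaps up to 500 bp over it occurred 49 times at their ends.

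Chains were spread over all chromosomes except the fourth. Chromosome 3L had 95 chains, with 34.6% of its summits in chains, and the X chromosome had 75, with 29.8%. The share was 23.7% on 2L, 23.3% on 2R and 22.1% on 3R, and 0 of 19 summits on chromosome 4 were in a chain. When chains were built afresh from each replicate, 3L had 31.5%, 32.7% and 29.1% of its summits in chains and 3R had 21.2%, 22.2% and 18.5%. The 3L share was above those of 2L, 2R and 3R in every replicate, with no overlap.

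The 20 chains with the most summits held 210 summits, of which 107 were intronic, 57 intergenic and 40 within 500 bp of an annotated transcription start site (TSS). Their strongest summits had pooled ranks from 3 to 2244, with a median of 385, so a chain of many summits did not always contain a top peak. Only 3 of the 20 had their strongest summit at a promoter. The largest chain lay inside Mnt, which encodes a basic helix-loop-helix repressor that competes with Myc, at X from 3677994 to 3696760. All 15 of its summits were in the gene, 14 of them in introns. The strongest had pooled rank 483, and ranks of 508, 437 and 530 in replicates 1, 2 and 3. The weakest was at pooled rank 6056 and at 5724, 6281 and 8460 in the replicates. Chains rebuilt at Mnt in the replicate lists had 20, 17 and 14 summits, so the locus was densely listed in each.

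**Figure D1:**
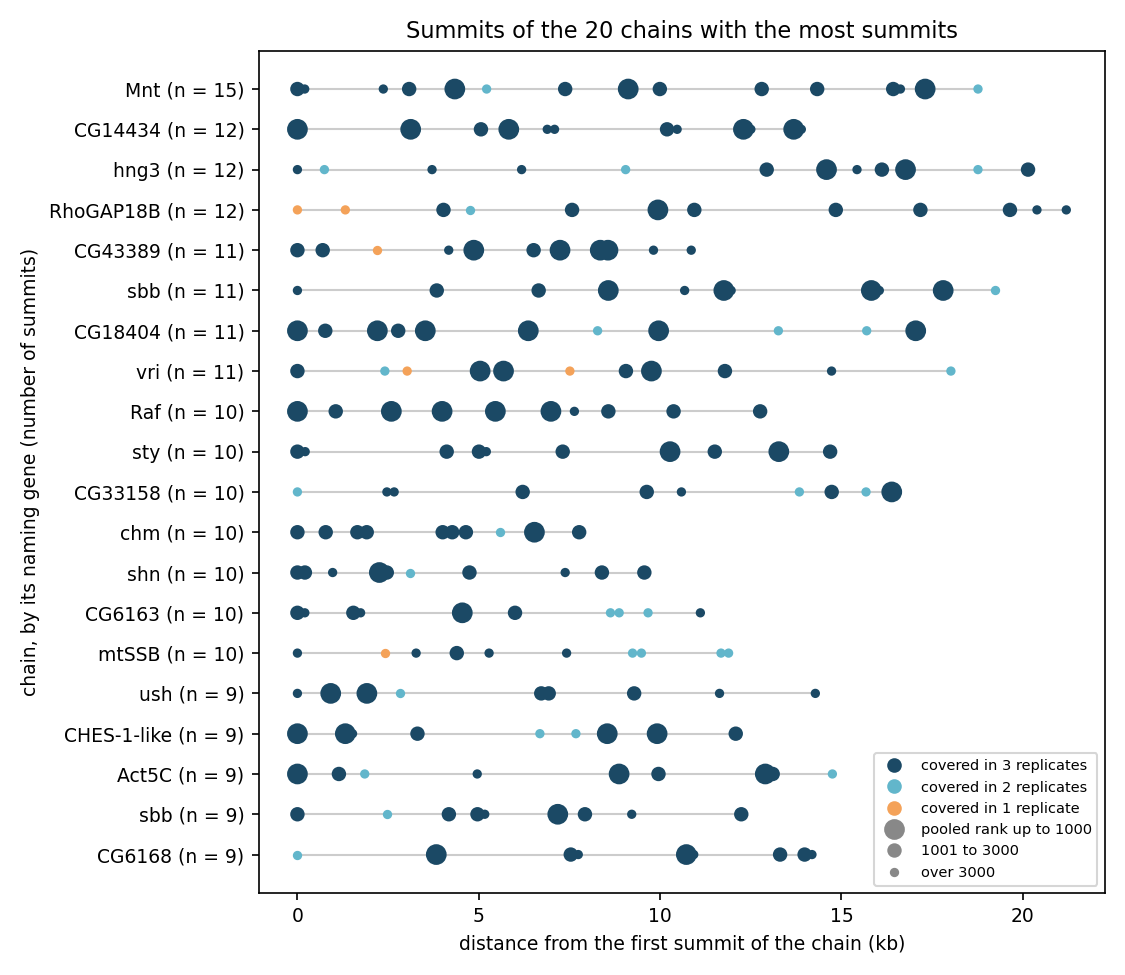
Each row is 1 of the 20 chains with the most summits, each point is a summit placed by its distance in kb from the first summit of its chain, colour gives the number of replicate lists covering it and size the class of pooled rank. The chains held 9 to 15 summits, and 173 of their 210 summits (82.4%) were covered in all 3 replicates.

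The RhoGAP18B chain had the longest span, 21.2 kb, with all 12 summits in the gene. A chain of 12 summits at 3L from 745773 to 765919 lay over hng3 and emc, which encodes a helix-loop-helix inhibitor of proneural factors, with 5 summits in hng3, 2 of them also in emc, and 7 intergenic. Its strongest summit ranked 457 pooled and 518, 334 and 492 in the replicates. Within 8000 bp steps this chain joined 4 others into a block of 43 summits over 98.0 kb. The sbb gene, whose product is a nuclear corepressor also called brakeless, held chains of 11 and 9 summits, all intronic, whose strongest summits ranked 176 and 262. Chains of 11 summits at CG18404 and of 10 at sty were entirely intergenic. The nearest protein-coding gene of the second, sty, encodes Sprouty, an inhibitor of receptor tyrosine kinase signalling, and lay 1713 bp away from it.

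The ush chain held the strongest summit of any chain. The gene encodes a cofactor of GATA factors, and its chain of 9 summits at 2L from 479141 to 493422 also touched cbt, a gene for a zinc finger transcription factor. The strongest summit ranked 3 pooled and 2, 4 and 4 in the replicates, while the other 8 ranked from 222 to 4835. At osa, which encodes a subunit of the Brahma chromatin remodelling complex, a chain of only 4 summits had its strongest at rank 11, with 12, 14 and 11 in the replicates. All 4 osa summits were covered in every replicate. At Trl, the gene of GAGA factor, the strongest of 4 summits ranked 42 pooled and 36, 49 and 41 in the replicates. HmgD and HmgZ, overlapping genes for HMG box chromatin proteins, shared a chain of 8 summits whose strongest ranked 35 pooled and 34, 59 and 18 in the replicates. Further chains among the 10 with the strongest summit lay at COX7AL2, CG4004, CG32772, LPCAT and CG3552, where the strongest summits had pooled ranks of 17, 21, 14, 37 and 48. In total 26 chains contained a summit among the strongest 100 and 190 contained one among the strongest 1000, which left 144 chains with neither. Chain summits made up 30 of the strongest 100 and 288 of the strongest 1000, near their share of 26.9% of all summits on the 6 chromosomes. The median pooled rank of a chain's strongest summit was 842.

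Genes of a joint Activin and BMP list were covered by chains in 3 of 26 cases, the receptors tkv and wit and the nuclear cofactor shn. Of these, tkv and shn belong to the BMP branch, whereas Smox belongs to the Activin branch, in which wit can act with babo. The Activin-branch genes babo and Smox held no chain summit. Over the genome, 297 of 13945 protein-coding genes (2.13%) held a chain summit in the gene body. Among genes of 20 kb or longer, 124 of 1013 (12.2%) did. The share was 0.497% under 5 kb, 4.90% from 5 to 20 kb, 9.92% from 20 to 50 kb and 17.6% above that. Of the 7 Activin and BMP genes of 20 kb or longer, 2 held a chain summit, tkv and shn.

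The type II receptor gene wit is 7.57 kb long and had a chain of 4 summits within 1341 bp at 3L from 4070607 to 4071948. The gene body held 3 of them, and the fourth lay outside it. The strongest ranked 146 pooled and 133, 158 and 100 in the replicates, high in all of them. It shared its interval with the second summit, and 1 replicate region covered both, so these are not separate recoveries. With 1 summit per distinct interval, no chain was left at wit. The same held when replicate 1 or replicate 2 was left out and coverage in the remaining pair was required. The fourth summit ranked 4543 pooled and 3230, 6547 and 9931 in the replicates, and chains were rebuilt there in replicates 1 and 2 but not in replicate 3. The type I BMP receptor gene tkv is 52.4 kb long and held 6 chain summits, all intronic, at 2L from 5249968 to 5256331. Its strongest ranked 234 pooled and 283, 191 and 191 in the replicates, whereas the summit at pooled rank 6011 was covered in replicate 1 only. The rebuilt tkv chains had 5, 6 and 4 summits.

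The shn gene encodes a zinc finger cofactor of the BMP-branch SMAD Mad, with a known role in repressing brk. It is 58.3 kb long, and 18 of its 20 thresholded summits fell into 2 chains. The chain of 10 had its strongest summit at rank 960 pooled and 953, 833 and 1127 in the replicates. The chain of 8 had its strongest at rank 472 pooled and 438, 390 and 667. Both were matched by chains in all 3 replicates. No chain touched the gene bodies of babo, put, Smox, Mad, Med or Dad. Dad, the gene of the inhibitory SMAD, held 5 thresholded summits and Mad held 3, none of them in a chain.

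Chains covered 5 of 29 ecdysone-response genes (17.2%, against 2.13% of all genes), vri, Eip75B, Hr4, EcR and Eip78C, all of 20 kb or longer. Ecdysone is the steroid hormone whose pulse starts puparium formation, and the nuclear receptors it induces are among its early and early-late response genes. Of the 14 list members of 20 kb or longer, 5 held a chain summit, beside 12.2% of genes of that length over the genome. The difference was not tested. The vri chain, in and next to a gene for a basic leucine zipper repressor of the clock and of the ecdysone response, had 11 summits at 2L from 5287706 to 5305725. All 10 thresholded summits inside vri belonged to it. Its strongest summit ranked 387 pooled and 279, 485 and 369 in the replicates. Coverage was less even, with 10, 8 and 9 of the 11 summits covered in replicates 1, 2 and 3.

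Eip75B, a nuclear receptor gene of 114 kb, held 6 of its 15 thresholded summits in a chain at 3L from 17999800 to 18011907. Its outer summits were the strong ones. The first, 21 bp from a TSS, ranked 358 pooled and 374, 258 and 529 in the replicates. The last, in an intron, ranked 13 pooled and 21, 12 and 15. The weakest, at pooled rank 6295, ranked 6412 and 5490 in replicates 1 and 2 and had no overlapping region in replicate 3.

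Hr4, a nuclear receptor gene of 66.0 kb, had a chain of 8 summits, 6 of them in the gene, whose strongest ranked 66 pooled and 69, 61 and 77 in the replicates. Its summit at 1945059 was covered in 0 replicates and that at 1941721 in replicate 1 only. Eip78C, another nuclear receptor gene, had 4 intronic summits with the strongest at rank 52 pooled and 56, 45 and 57 in the replicates. Its top peak was stable, but a chain was rebuilt there in replicate 1 only, where all 4 summits were covered, against 3 in each of the others. The EcR chain, in the gene of the ecdysone receptor, was the weakest of the 5. Its strongest summit ranked 2740 pooled and 4282, 2562 and 2404 in the replicates, and chains of 4 were rebuilt in replicates 2 and 3 but not in replicate 1. Hr3, ftz-f1 and Eip74EF held 7, 6 and 6 thresholded summits in the gene body with none in a chain.

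Among signalling genes, chains covered 6 of 19 in the EGFR list (31.6%, against 2.13% of all genes), and 3 of its 9 genes of 20 kb or longer (12.2% over the genome). Raf, the kinase gene of the MAPK cascade, had 8 chain summits in a gene of 48.4 kb. Its chain of 10 at X from 2293736 to 2306495 was covered at every summit in every replicate, and rebuilt chains had 10 summits in all 3. Pooled ranks within it ran from 88 to 4807, and the strongest ranked 121, 67 and 69 in the replicates. The antagonist gene aos held 4 summits inside the CG33158 chain, the ETS factor genes aop and pnt held 4 each, and the ligand gene spi held 4. Of the Wingless list 6 of 23 (26.1%) had a chain summit, and 5 of the 9 long ones. The co-receptor gene arr held 9 of 9 thresholded summits in 1 chain, whose strongest ranked 359 pooled and 363, 385 and 308 in the replicates. The receptor genes fz and fz2 held 5 chain summits each, of 14 and 10 in all, and Notum, nkd and dlp held 3 each. Hippo pathway genes were covered in 3 of 18 cases (16.7%), 1 of 5 among the long ones. Diap1, the caspase inhibitor gene, had 5 of 5 summits in a chain, wts, the core kinase gene, 4 of 4, and ft 1 of 2. Notch pathway genes were covered in 2 of 24 cases (8.33%), both among the 7 long ones, with 6 chain summits in mam and 4 in numb. The chains named by ft and numb were matched in no replicate.

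Chains also covered genes of chromatin and RNA regulators, again beside 2.13% of all genes and 12.2% of those of 20 kb or longer. Of 26 chromatin genes 6 (23.1%) had a chain summit, and 4 of the 6 long ones, with 20 in sbb, 14 in the 5-methylcytosine dioxygenase family gene Tet, 5 in trx, 4 in osa and in ph-p, and 2 in ph-d. Of 17 BTB domain factors 5 (29.4%) did, and 4 of the 11 long ones, with 12 in psq, 8 in bab1, 4 in Trl, 3 in ttk and 2 in lola. Of 20 RNA-binding regulators 5 (25%) did, all among the 16 long ones, with 8 in the translational repressor gene brat, 6 each in shep and sm, and 4 each in heph and pum. The RNA-binding list had a median gene length of 93.5 kb and the BTB list 36.8 kb, while the chromatin list had 9.23 kb and the Hippo list 8.45 kb. Not all of these chains were stable. Of the 3 chains named by psq, whose best pooled rank was 1354, 0 were matched in all 3 replicates. For Tet it was 1 of 3 chains, and for sbb and brat 2 of 2 each. The chain named by ph-d was matched in no replicate.

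Antp of 8 Hox genes (12.5%) and bi of 33 imaginal disc selector genes (3.03%) held a chain, with 4 and 5 chain summits. Among genes of 20 kb or longer this was 1 of 6 Hox genes and 1 of 11 selector genes. Of 18 neuronal identity genes Syp and jing (11.1%) held 4 chain summits each, which made 2 of the 8 long ones. Of 33 cell recognition genes, whose median length was 40.4 kb, Ten-a held 8 and kirre 5, which made 2 of the 25 long ones. Of the 2 chains named by Ten-a, 0 were matched in all 3 replicates. kirre spans 394 kb and had 30 thresholded summits, of which those 5 lay in a chain. No chain summit lay in any of 10 other nuclear receptor genes, 18 sarcomere genes, 18 insulin and TOR genes, 120 cuticle protein genes or 179 chemosensory receptor genes. Over the genome, 2.13% of protein-coding genes, 12.2% of those of 20 kb or longer and 0.497% of those under 5 kb held a chain summit. At such shares, 0 genes in any of these lists says little about that list, the cuticle and chemosensory lists included. The cuticle and chemosensory genes had median lengths of 0.970 and 1.69 kb and the sarcomere genes 12.9 kb. Of the cuticle genes 2, and of the chemosensory genes 0, held any thresholded summit.

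**Figure D2:**
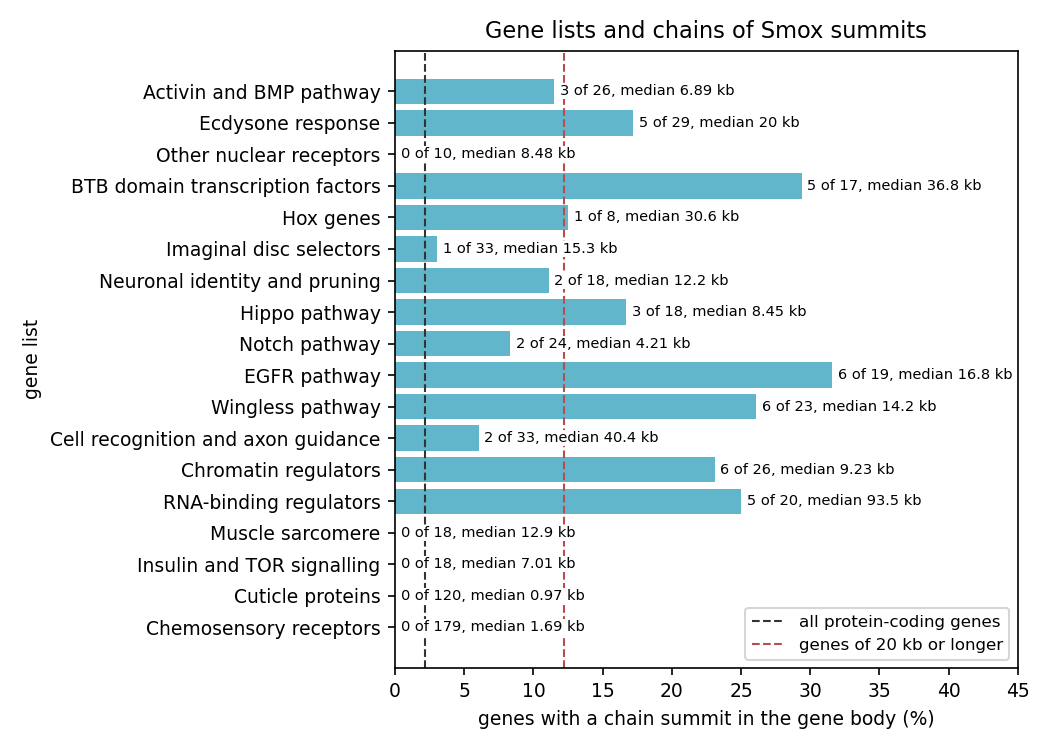
Bars give, for each gene list, the percentage of its genes with a chain summit in the gene body, with the count and the median gene length beside it, and dashed lines mark all protein-coding genes (2.13%) and those of 20 kb or longer (12.2%). The EGFR list had 6 of 19 genes with a chain and the list of chemosensory receptors 0 of 179. Their median gene lengths were 16.8 and 1.69 kb.

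Chains often belonged to 1 gene, but not always. All summits lay in 1 gene body in 129 chains (38.6%), summits of 47 chains fell into more than 1 gene body, and 69 chains had no summit in any protein-coding gene. The gene names of the chains numbered 310, since 18 genes named more than 1 chain. The psq, Tet, tara, siz, hng3 and CG1677 genes named 3 each.

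Chain summits lay at promoters less often than other summits. In the thresholded list 452 chain summits (25.4%) were within 500 bp of a TSS against 36.2% of the others, 49.3% were intronic against 42.2%, and 22.3% were intergenic against 19.2%. A single chain summit fell in a coding exon away from promoters. When chains were built afresh in each replicate list, the promoter share was 27.5%, 27.7% and 26.1% in chains and 38.6%, 40.9% and 40.1% elsewhere. The groups did not overlap, and the share was lower in chains in all 3 replicates. The difference was -12.7 percentage points ± 1.46 (SD, n = 3; exact two-sided sign-flip permutation test, p = 0.25, the smallest that 3 replicates allow, as for every test of this kind here). The intron share of rebuilt chains was higher by 8.48 points ± 0.985 (SD, n = 3; exact permutation p = 0.25) and the intergenic share by 3.98 points ± 0.949 (SD, n = 3; exact permutation p = 0.25).

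The promoter share was lower in longer runs. It was 37.0% for single summits, 38.3% in pairs, 31.3% in runs of 3, 29.4% in chains of 4, 27.2% in chains of 5 to 6, 19.1% in chains of 7 to 9 and 18.8% in longer ones. The means of the replicate lists took the same course from 40.4% ± 0.780 for single regions to 18.8% ± 4.23 for runs of 10 or more (SD, n = 3). At least 1 promoter summit was present in 221 chains, and 113 (33.8%) had none. Each chain holds 4 or more summits and 25.4% of chain summits were at promoters, so these counts cannot be read apart from chain length. The strongest summit of the chain was at a promoter in 86 chains (25.7%), in an intron in 175 and intergenic in 67.

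**Figure D3:**
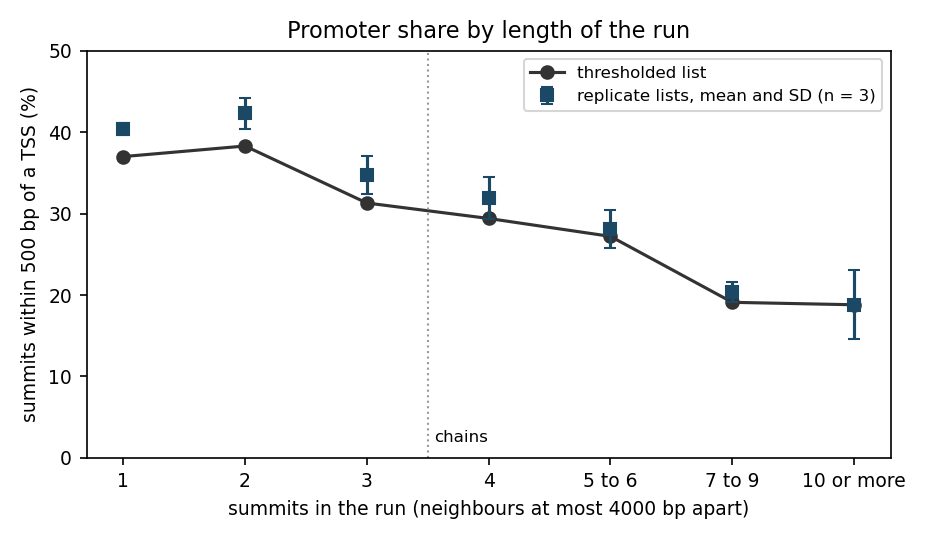
The vertical axis gives the percentage of summits within 500 bp of a TSS, the horizontal axis the number of summits in the run, with circles for the thresholded list and squares with SD bars for the mean of 3 replicate lists. The share in the thresholded list was 37.0% for single summits and 18.8% in chains of 10 or more.

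Chain summits ranked somewhat higher than the rest. Their median pooled rank was 3038 against 3414. Their median rank was 2784, 2799 and 2876 in the 3 replicates against 3455, 3438 and 3524 for the others, a difference of -652 ± 16.7 (SD, n = 3; exact two-sided permutation p = 0.25). Neighbouring chain summits covered by 1 replicate region share its rank here. Ranked by −log10 q-value the difference over replicates was -424, and the pooled medians were 3278 in chains and 3344 outside. The difference lay among summits away from promoters, where the median pooled rank was 3056 in chains and 3683 outside. Promoter summits had 3005 in chains and 2830 outside, the opposite order. Neither of these splits was tested. The strongest summit was the first or last of its chain in 43.4% of chains, and 41.0% of all chain positions are first or last. The replicate lists gave 42.5%, 39.7% and 40.7%.

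Recovery was measured in each replicate list, cut to its 6622 strongest regions, with an overlap of 1 bp. Since the thresholded list was made from the same replicates, these values describe agreement and are no independent test. All 3 replicates covered 1373 chain summits (77.2%), against 71.8% of all 6600 thresholded summits. Exactly 2 replicates covered 276, exactly 1 covered 125 and none covered 4. Per replicate, 92.0%, 90.2% and 87.6% of chain summits were covered against 87.8%, 85.2% and 83.6% of the others. The difference was 4.38 percentage points ± 0.475 (SD, n = 3; exact two-sided permutation p = 0.25), positive in all 3. Its size depended on the rule. It was 1.73 points with a replicate summit within 100 bp, 2.47 with 50% of the peak covered, 9.66 with replicate lists of 0.5 times the length, 0.542 with 2 times the length and 0.352 with whole lists.

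The difference was largest among weak summits. At pooled ranks of 1 to 1656, 99.8% of chain summits and 98.5% of the others were covered in all replicates, and at ranks up to 3311 from there 98.9% and 96.9%. At ranks up to 4966 the values were 78.9% and 72.5%, and at the weakest ranks, 4967 to 6622, they were 25.7% and 14.1%. In this last class the mean coverage per replicate was 65.1% ± 6.05 in chains and 54.9% ± 3.87 outside (SD, n = 3). By the 1 bp rule 1 replicate region can cover several neighbouring summits, as at wit. With only summits that had no neighbour within 500 bp, the weakest class gave 57.4% against 51.6%. With a replicate summit required within 100 bp, it gave 50.1% against 47.5%, a difference of 2.61 points ± 2.90 (SD, n = 3; exact two-sided permutation p = 0.25), within the spread between replicates.

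**Figure D4:**
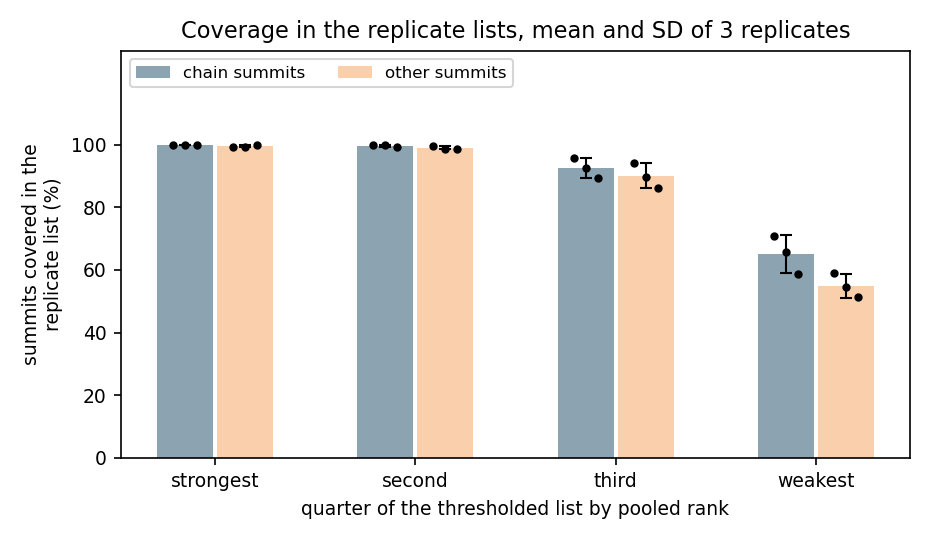
Bars give the mean percentage of summits covered in a replicate list in 4 classes of pooled rank, for chain summits and other summits, with SD bars and a point for each of 3 replicates. Coverage was near complete in the 2 stronger classes and was 65.1% in chains and 54.9% elsewhere in the weakest.

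Chains were also rebuilt from each replicate alone, and a pooled chain counted as matched where its span overlapped any replicate chain. Replicates 1, 2 and 3 gave 320, 343 and 290 chains (mean 318 ± 26.6, SD), holding 25.3%, 27.3% and 23.5% of their summits. The pooled chains were matched by an overlapping chain in 77.8%, 76.9% and 68.9% of cases. In all 3 replicates 179 chains (53.6%) were matched, in exactly 2 replicates 75, in 1 replicate 60 and in none 20. Every summit was covered in all 3 replicates in 98 chains (29.3%). By size, 44 of 159 chains of 4 summits (27.7%), 74 of 111 with 5 or 6 (66.7%), 46 of 49 with 7 to 9 (93.9%) and 15 of 15 with 10 or more were matched in all 3. A longer chain can lose summits and still be matched, so these shares are no measure of stability by size. Coverage of single summits in all 3 replicates was 75.8%, 78.9%, 75.1% and 81.8% in the same size classes. The chains matched in no replicate included those at ft, numb, sna and ph-d. The ph-d chain had 5 summits and the other 19 had 4. Among these, all 4 summits of the BomT1, sds22 and twin chains were covered in every replicate.

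**Figure D5:**
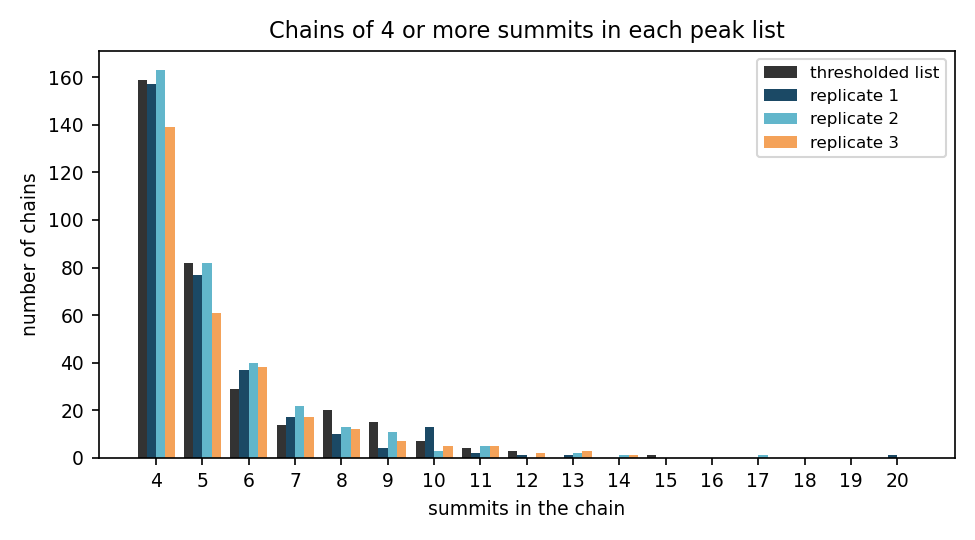
Bars count chains by the number of summits in them, for the thresholded list and for chains built from each replicate list at the same number of regions. Chains of 4 numbered 159 in the thresholded list, and the largest chain had 15 summits there and 20, 17 and 14 in replicates 1, 2 and 3.

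Regions below the threshold rank were counted in chain spans too. The pooled list placed 30.8 such regions per 100 kb of chain span against 17.2 elsewhere. The replicates gave 36.5, 37.9 and 34.5 per 100 kb against 17.1, 17.1 and 17.2. These include thresholded peaks that fell below the rank in a replicate. Counting only regions that overlap no thresholded peak, the pooled list had 21.1 against 16.5, and the replicates had 20.8, 19.8 and 18.4 against 15.9, 15.8 and 15.9. The thresholded peaks themselves stay in the length counted, and the difference was not tested.

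Base composition differed little between chain summits and the others. The mean GC content of 151 bp windows was 33.4% in chains and 33.3% outside. Means of single chains ran from 24.1% in the chain named by Eip93F, a gene whose body held 0 chain summits, to 47.8% in that named by RpL22. In rebuilt chains it was higher by 0.210 percentage points ± 0.161 (SD, n = 3; exact two-sided permutation p = 0.25), a difference that changed sign with windows of 150 bp either side. The SMAD box GTCT, searched on both strands, was in 39.9% of chain windows, 41.7% of other windows and 41.2% of all thresholded windows. In the replicate lists it was higher in chains in 1 of 3, so no difference in 1 direction was seen. The palindrome GTCTAGAC was found in 0 of 1778 chain windows and 0.0303% of all. GGCGCC, the GC-rich SMAD element, was in 1.35% of chain windows, 1.60% of other windows and 1.53% of all.

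Of 19 elements counted on both strands, 5 were more frequent in the rebuilt chains of all 3 replicates, 8 were less frequent or equal in all 3, and 6 were mixed. The control string GGAGA was among the 5, in 12% of chain windows and 11.9% of the others and of all, and so was the A tract AAAAAAA, in 23.7% against 21.7% and 22.2% of all. The Mad site GCCGNCGC was also among the 5, in 0.619% of chain windows (11 windows) against 0.601% of the others and 0.606% of all. In the replicate lists it was in 0.540%, 0.833% and 0.775% of rebuilt-chain windows against 0.466%, 0.772% and 0.514% elsewhere. Among the 8 were elements known from promoters. The DRE, TATCGATA, was in 0.675% of chain windows against 1.31% of the others and 1.14% of all, and the M1BP motif, GGTCACAC, in 0.619% against 1.08% and 0.955% of all. Both were rarer in the rebuilt chains of all 3 replicates, with 0.900%, 1.05% and 0.775% for the DRE against 1.38%, 1.69% and 1.92% elsewhere. The single AGGTCA repeat unit of ecdysone receptor sites was in 2.31% against 3.11%, with 2.89% of all windows. The BEAF-32 core CGATA was in 16.7% against 17.8% and 17.5% of all, and the homeodomain core TAATTA in 14.4% against 15.0% and 14.8% of all. The E-box CACGTG, the AP-1 site TGANTCA and the SMAD palindrome made up the 8. The AP-1 site was the exception in the thresholded list, with 3.66% in chains against 3.40%. These shares are descriptions without a test, and a match in a window does not show a bound site.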

How the data were processed

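ChIP-seq peak lists of 3 biological replicates of 1 group were used, and replicate numbers come from the labels. Per the deposited file listings, the authors called peaks and background regions on each replicate and on the pooled replicates with 1 control alignment, and derived the thresholded list from these by the irreproducible discovery rate. Which aligner, peak caller, cutoff and control were used is not given in the sources used here. Every deposited line has a score of unstated scale, which served only for ranks inside 1 list, a −log10 q-value as deposited, used in 1 alternative, and the summit offset in bp. All unthresholded lists had 30000 lines, and the thresholded list held the 6622 highest scores of the pooled list. Read counts are not given, so no depth or interval is stated. Replicates 1 and 2 shared 292 identical intervals, none with the same score, and no other pair shared any.

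Summits within 4000 bp were joined and runs of 4 or more kept. Each replicate list was cut to 6622 regions for values per replicate, and a replicate chain matched a pooled chain where their spans overlapped. Summits were assigned in order to promoters (within 500 bp of a TSS), UTRs, coding exons, other exons, introns and intergenic sequence with Ensembl release 115 (BDGP6.54), whose Release 6 sequence is that of dm6. Overlapping genes each count a summit. Sequence windows were 151 bp wide. The 18 gene lists matched the annotation in full, 9 entries through older symbols. Exact two-sided sign-flip permutation tests over 3 replicates cannot go below p = 0.25. The members, lists and tests were chosen with earlier results of these data known. Named chains are the 20 with most summits, the 10 with the strongest summit and those covering genes of the Activin and BMP or ecdysone lists, 35 in all. Of each other list up to 4 genes with most chain summits are named. Genes named beyond this rule, among them those tied for the last place, rare members such as ft, lola and ph-d, genes naming 3 chains, genes of unmatched chains, Eip93F, RpL22 and genes without chains, were chosen after their values were seen. Alternatives varied the gap, the number of summits, the list, the overlap, the windows and the replicates, and summits without a near neighbour and regions outside thresholded peaks were added after seeing the data. Python 3.11.15, numpy 2.4.6, pandas 2.3.3 and matplotlib 3.10.9 were used, and the functions were tested on simulated data.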

Additional observations from a re-analysis of the deposited data

How the results depend on the processing

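Chain number depends on the definition. With gaps of up to 2000 bp there were 154 chains with 703 summits, and with 8000 bp 511 with 3174. Runs of at least 3, 5 and 6 summits gave 673, 175 and 93 chains, with 2795, 1142 and 732 summits. The strongest 75% of peaks gave 178 chains with 897 summits and the strongest 50% gave 77 with 373, from fewer summits. Peaks covered in all 3 replicates gave 186 with 944. Requiring coverage in the remaining pair when 1 replicate was left out gave 207 to 215 chains with 1060 to 1120 summits. Gaps of 3000 and 6000 bp, 1 summit per interval, ranking by −log10 q-value and the dm3 list kept both counts within 1.5 times.

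Coverage of chain summits in all replicates was 64.5% with a replicate summit within 100 bp, 66.1% with 50% of the peak covered, 73.3% for summits without a neighbour within 500 bp, 47.1%, 96.9% and 98.7% with replicate lists of 0.5 and 2 times the length and whole, and 80.7% to 83.7% with 1 replicate left out. Rebuilt chains averaged 74.0 and 976 at 0.5 and 2 times the length and 134 and 492 at gaps of 2000 and 8000 bp, and pooled chains matched in every replicate were 13.5%, 93.1%, 15.3% and 74.9%. They were 59.0% to 62.6% with 1 replicate left out. The promoter share was 16.8% and 37.2% at 250 and 1000 bp, genes with 1 kb either side numbered 531, and by q-value the median rank of chain summits was 3278. Windows of 50 and 150 bp either side gave GC contents of 32.6% and 36.5% and SMAD boxes in 27.7% and 67.6%. At 150 bp the GC difference reversed to -0.0410 points. Sub-threshold regions that overlap no thresholded peak averaged 19.7 per 100 kb of chain span. Of 475 values of the 35 named chains under alternatives, 391 stayed within 1.5 times and 84 did not. A further 50 had no chain left. The cause was not tested. No paired analysis was possible because there is only 1 group, although chain and other summits were compared within each replicate.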

Other observations

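Chains also lay over genes of non-coding RNAs, none of which the report's naming rule covers, so these were chosen after their values were seen. Of 3261 annotated ncRNA genes, 143 overlapped a chain span and 68 (2.09%) held a chain summit, close to the 2.13% of protein-coding genes. lncRNA:CR43334, whose span contains the growth-promoting microRNA gene bantam, held 6 summits of a chain of 8 at 3L from 627221 to 644311. The strongest summit of that chain ranked 413 pooled and 389, 421 and 439 in replicates 1, 2 and 3, and the chain was matched in all 3. lncRNA:let7C, the transcript of the let-7 cluster of microRNAs, which is induced at metamorphosis, held 5 summits of a chain at 2L from 18463762 to 18468248. Its strongest ranked 766 pooled and 722, 740 and 940 in the replicates, and that chain was also matched in all 3. lncRNA:CR44357, of 239 kb on the X chromosome, held 14 chain summits. The microRNA genes mir-282 and mir-275 lay inside the spans of the CG43389 and chm chains. No chain summit lay in any of 290 tRNA, 269 snoRNA, 32 snRNA or 99 rRNA genes. The share of protein-coding genes under 5 kb was 0.497%, and the lengths of these RNA genes were not matched.

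With steps of up to 8000 bp, the largest blocks were 43 summits over 98.0 kb around emc, 28 over 48.0 kb from mtSSB to tara, and 22 over 40.5 kb between CG18404 and heca. The mtSSB chain had the weakest leading summit of the 20 largest chains, at pooled rank 2244 and at 2425, 2826 and 1861 in the replicates.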
